A study of Mus musculus with 6 samples.

Results

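The genes described here are the segments of the mouse immunoglobulin loci: 395 of the 52550 genes listed, chosen by symbols that begin with Igh, Igk or Igl followed by the letter of a variable (V), diversity (D), joining (J) or constant (C) segment, without Ighmbp2, a helicase gene. Of these, 217 lie in the heavy chain locus on chromosome 12 (185 V, 20 D, 4 J and 8 C), 166 in the kappa light chain locus on chromosome 6 (160 V, 5 J and 1 C) and 12 in the lambda light chain locus on chromosome 16 (3 V, 5 J and 4 C). Transcripts were sequenced in 6 libraries, which the labels assign to splenic γδ T cells of C57BL/6 mice. All cells were kept for 3 days in wells pre-coated with anti-CD3 and anti-CD28, which stimulate T cells through their receptor, and all received IL-23 and IL-1β. The DON group (3 libraries) had DON added, an agent given in the labels by this abbreviation alone, and the Control group (3 libraries) had no DON. The labels give no sex, age, sorting marker or number of mice.

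An antibody consists of paired heavy and light chains. In B cells and their precursors, V, D and J segments are joined in the DNA and the joined exon is spliced to a C segment, so that V segments carry the antigen-binding part and C segments set the class of the antibody. IgM and IgD, encoded with Ighm and Ighd, are made from the same primary transcript in naive B cells, whereas IgG, IgA and IgE need class switching, a second rearrangement. Rearranged immunoglobulin genes are a feature of B lineage cells, and T cells rearrange their receptor genes instead.

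The labelled cell type was set against marker genes. Transcripts of the δ chain constant gene Trdc averaged 4451 ± 151 normalized counts in DON and 4568 ± 136 in Control (SD, n = 3 each). Transcripts of αβ T cells were also high: Trac, the α chain constant gene, averaged 12028 ± 860 in DON and 10889 ± 124 in Control, and Cd4 averaged 13543 ± 413 in DON and 13377 ± 273 in Control. All 14 B cell markers were above the minimum level, and their summed level was 27649 to 30978 in DON and 53768 to 55230 in Control. Cd74 alone made up 13166 to 15207 of that sum in DON and 27593 to 28774 in Control. Of 6 αβ T cell genes 0 passed by limma, 1 of them at an unadjusted p under 0.05 (edgeR and DESeq2 called 0). The libraries therefore held transcripts that mark αβ T cells and B cells beside those of γδ T cells. In bulk RNA, fewer cells of a type and less RNA per cell cannot be told apart. Recovered depth was 35717703 to 40840099 units in DON libraries and 33715873 to 37888926 in Control libraries, a unit being the smallest step of the values in a library. DON libraries 2 and 3 stood apart in a trend with transcript GC content. The 87.8% of tested genes that had a GC value were cut into 10 equal bins by GC content. The mean log2 deviation of the highest bin minus that of the lowest was -0.18, 0.51 and 0.55 in DON libraries 1 to 3. In Control it was -0.34 to -0.21. The median GC content was 49.4% for the tested immunoglobulin genes and 49.3% for all tested genes with a GC value.

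Sequences of the J segments and V segment ends are printed first, to show how the segments named in the results differ from one another. The kappa J segments differ in the motif TTCGGNNNNGG, which encodes the phenylalanine and glycine residues of the J region and is shown in capitals. It was found in 4 of 5 kappa J segments and 4 of 5 lambda J segments on the coding strand and in none on the other strand. Igkj3, an unused J segment in the mouse, does not hold it (GRCm38, plus strand, chr6:70723223-70723260).
Igkj2: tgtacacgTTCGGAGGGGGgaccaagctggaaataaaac
Igkj3: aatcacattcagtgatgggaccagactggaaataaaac
Igkj4: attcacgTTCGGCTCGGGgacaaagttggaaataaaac
Igkj5: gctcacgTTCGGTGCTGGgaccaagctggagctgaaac
The heavy J segments hold TGGGGNNNNGG, with tryptophan in place of phenylalanine, in 4 of 4 cases, as in Ighj4 (minus strand, chr12:113428514-113428567).
Ighj4: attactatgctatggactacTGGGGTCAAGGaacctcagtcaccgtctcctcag

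The last 60 coding bases of 6 V segments are shown next, with the last in-frame cysteine codon in capitals, which is the second conserved cysteine of the V domain. The first 4 are the V segments known in mice from B-1 cells reactive to phosphatidylcholine, in which Ighv11-2 pairs with Igkv14-126 and Ighv12-3 with Igkv4-91. Ighv1-55 and Igkv1-135 are shown beside them as abundant segments of other families.
Ighv11-2: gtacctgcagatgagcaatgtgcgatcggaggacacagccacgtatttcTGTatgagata
Igkv14-126: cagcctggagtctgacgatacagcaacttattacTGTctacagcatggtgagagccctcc
Ighv12-3: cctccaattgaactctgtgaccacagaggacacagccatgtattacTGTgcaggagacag
Igkv4-91: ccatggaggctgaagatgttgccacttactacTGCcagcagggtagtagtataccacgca
Ighv1-55: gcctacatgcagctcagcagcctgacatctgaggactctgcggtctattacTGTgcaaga
Igkv1-135: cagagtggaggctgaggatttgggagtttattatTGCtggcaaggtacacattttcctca
Iglv1 and Iglv2 show how alike segments can be: over their last 60 coding bases they differ at 3 positions, in capitals, and over the whole coding part they are 96.9% identical.
Iglv1: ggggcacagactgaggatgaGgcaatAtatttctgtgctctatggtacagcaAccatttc
Iglv2: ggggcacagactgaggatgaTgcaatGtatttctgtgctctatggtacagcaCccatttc
The first 60 coding bases of the lambda constant genes are shown with bases that differ from Iglc2 in capitals. Iglc3 differs at 4 positions, Iglc1 at 12 and Iglc4 at 15.
Iglc2: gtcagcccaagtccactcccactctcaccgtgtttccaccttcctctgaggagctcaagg
Iglc3: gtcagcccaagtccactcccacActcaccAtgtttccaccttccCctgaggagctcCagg
Iglc1: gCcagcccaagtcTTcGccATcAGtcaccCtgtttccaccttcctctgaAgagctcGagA
Iglc4: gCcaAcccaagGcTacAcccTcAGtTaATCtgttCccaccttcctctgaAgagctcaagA
Of the 348 V segments, 146 had another member at 95% identity or more over at least 80% of the transcript. Such a copy was found for 93 of the 166 tested V segments and for 17 of the 23 that fell. Ighv11-2 was not counted under this rule, although Ighv11-1 is 98.9% identical to it over at least 80% of the Ighv11-1 transcript. The sources do not state whether the authors' counting split reads between such copies, so values of single V segments with a close copy are uncertain.

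Immunoglobulin transcripts were lower in DON at all 3 loci, and no member rose. Of the 395 members, 129 were at 0 in all 6 libraries, where a count of 0 allows 2.68 to 3.29 normalized counts per library if 1 unit is 1 read (counting error only), and 184 reached the minimum of 10 normalized counts in at least 3 libraries. In a limma fit of log2(normalized count + 1) over 17185 tested genes, with p-values adjusted after Benjamini and Hochberg and a threshold of 0.05, 28 of the 184 fell, 0 rose and 156 did not pass. No member was higher in DON at an unadjusted p under 0.05 (limma, 0 members), and edgeR and DESeq2 also called 0 higher. Over all tested genes 4.15% fell and 2.3% rose, 6.45% in either direction. Of the 184, 8 reached the minimum through Control libraries alone and 2 of those fell, while 26 of the 176 that reached it in both groups fell. Median log2 change was -0.77 over the tested members and 0.00 over all tested genes, and for 101 of the members all DON libraries were lower than all Control libraries, with 0 members the other way round, against 15.7% of all tested genes in each direction. The number of members that fell was 6, 6 and 4 without Control library 1, 2 or 3, and 45, 17 and 12 without DON library 1, 2 or 3. Over all 17185 tested genes it was 220, 199 and 193 without those Control libraries, and 2118, 310 and 311 without those DON libraries. After a correction for GC content 39 members fell, and 825 of all tested genes.

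Summed over all members, normalized counts were 59677, 68821 and 64118 in DON libraries and 91874, 88762 and 90107 in Control libraries. The groups did not overlap, and the DON mean was 71.1% of the Control mean. Immunoglobulin genes held 0.175% ± 0.014 of all normalized counts in DON and 0.244% ± 0.004 in Control (SD, n = 3 each). Heavy chain transcripts made up 71.9% of the immunoglobulin sum in DON and 69.3% in Control, kappa 21.5% in DON and 24.8% in Control, and lambda 6.61% in DON and 5.98% in Control, with no overlap between groups in any of these shares.

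The size of the difference between groups was not the same for V and C segments at every locus. Heavy V segments summed to 4295 ± 327 in DON and 7594 ± 176 in Control, a log2 ratio of group means of -0.82, and heavy C segments to 41792 ± 2948 in DON and 54854 ± 1284 in Control, a log2 ratio of -0.39. Kappa V segments summed to 5872 ± 386 in DON and 9160 ± 209 in Control (log2 ratio -0.64), and the kappa C segment Igkc to 7892 ± 782 in DON and 13102 ± 135 in Control (log2 ratio -0.73). Lambda V segments summed to 1353 ± 77.8 in DON and 2258 ± 15.5 in Control (log2 ratio -0.74), whereas lambda C segments, at 2853 ± 208 in DON and 3094 ± 185 in Control, overlapped between groups (log2 ratio -0.12). Divided by exonic length, C segments stood at 1.95 ± 0.04 times the V segments at the heavy locus in DON and 1.45 ± 0.03 in Control. The same quotient was 1.5 ± 0.02 in DON and 1.00 ± 0.07 in Control at the lambda locus, and 0.926 ± 0.057 in DON and 0.991 ± 0.033 in Control at the kappa locus, where the groups overlapped (SD, n = 3 each). The sums and quotients were not tested.

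**Figure D1:**
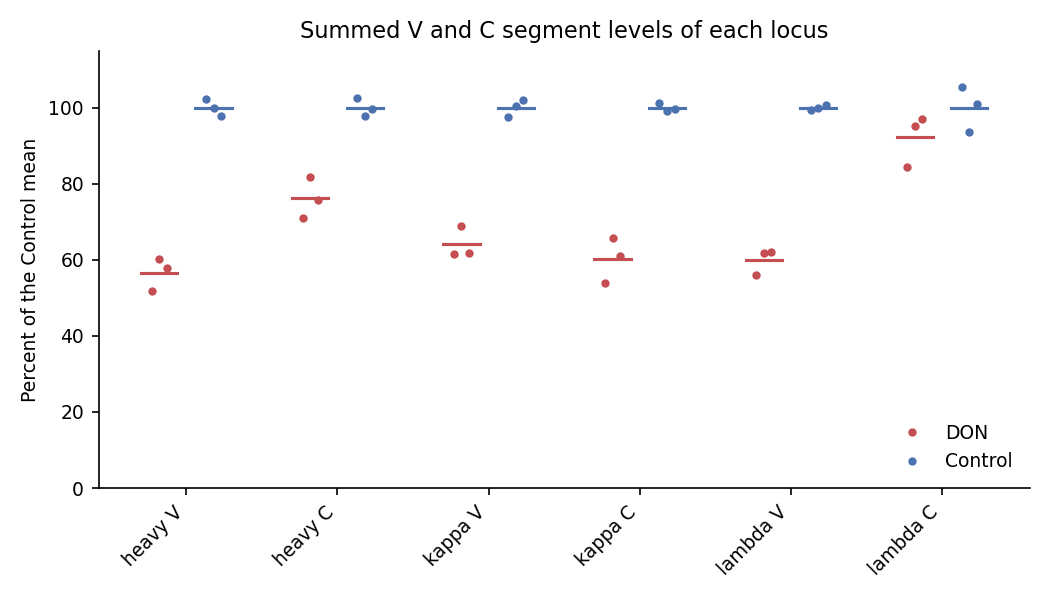
Summed V and C segments of the heavy, kappa and lambda loci in each library, as percent of the Control mean of that sum; points are libraries, bars are group means, DON left of Control. DON means lie at 56.6% for heavy V and 76.2% for heavy C, and only lambda C, at 92.2%, overlaps Control.

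Among constant region genes, Ighm, Ighd, Ighg1, Ighg2c and Igkc fell and none rose. Ighm encodes the constant part of IgM (ENSMUSG00000076617.9, GRCm38 chr12:113418558-113422730, minus strand). Per exonic length it was the most abundant member, at 21034 normalized counts per kilobase in DON and 26321 in Control, against 14834 in DON and 24628 in Control for Igkc. Its normalized counts were 36967, 42632 and 39411 in DON libraries and 51029, 48484 and 49411 in Control libraries. All DON libraries were lower than all Control libraries, and the log2 change was -0.33 (SE 0.06, limma adjusted p = 0.0266). That call was lost without any 1 of the Control libraries or without DON library 3 (limma adjusted p = 0.0923 to 0.106).

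Ighd, the constant gene of IgD that lies beside Ighm (ENSMUSG00000104213.5, chr12:113406604-113416324), had the largest fall of the constant genes. It had 854, 961 and 829 normalized counts in DON libraries, against 3275, 3210 and 3341 in Control libraries. The groups lay far apart, with a log2 change of -1.90 (SE 0.08, limma adjusted p = 5.97e-05). Ighm counts were 45.1 ± 2.2 times Ighd counts in DON and 15.2 ± 0.4 times in Control (SD, n = 3 each). Of the counts in heavy C segments, Ighd took 2.11% in DON and 5.97% in Control, and Ighm 94.9% in DON and 90.5% in Control.

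Of the switched isotypes, Ighg1 and Ighg2c fell. The 6 switched constant genes (Ighg1, Ighg2b, Ighg2c, Ighg3, Igha and Ighe) summed to 1241 ± 74.6 normalized counts in DON and 1937 ± 29.1 in Control. Ighg1, which encodes IgG1, had 98.5, 79.4 and 145 normalized counts in DON libraries and 306, 282 and 383 in Control libraries, and fell by 1.61 on the log2 scale (SE 0.25, limma adjusted p = 0.0122). Ighg2c, the C57BL/6 gene of IgG2c, had 103, 144 and 162 in DON libraries and 307, 383 and 362 in Control libraries, and fell by 1.38 on the log2 scale (SE 0.20, limma adjusted p = 0.0106). In both genes all DON libraries were below all Control libraries. The Ighg1 call was lost without Control library 1 or 3 (limma adjusted p = 0.0544 and 0.0612), and the Ighg2c call without Control library 2 or 3 (0.0584 and 0.0569).

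Ighg2b, at 345, 376 and 366 normalized counts in DON libraries and 388, 462 and 375 in Control libraries, overlapped between groups and did not pass the test (log2 change -0.17, 95% interval -0.46 to 0.13). It is 87.8% identical to Ighg2c over the coding part. Ighg3 and Igha, the gene of IgA, were lower in every DON library than in any Control library without passing the test, at 293 ± 20.5 in DON and 379 ± 18.5 in Control for Ighg3 (log2 change -0.37, limma adjusted p = 0.11) and 342 ± 9.36 in DON and 475 ± 37.4 in Control for Igha (log2 change -0.47, limma adjusted p = 0.053). Igha passed with DESeq2 (adjusted p = 0.0128), with the GC correction and without DON library 1. Ighe, the gene of IgE, was at 0 in all 6 libraries.

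**Figure D2:**
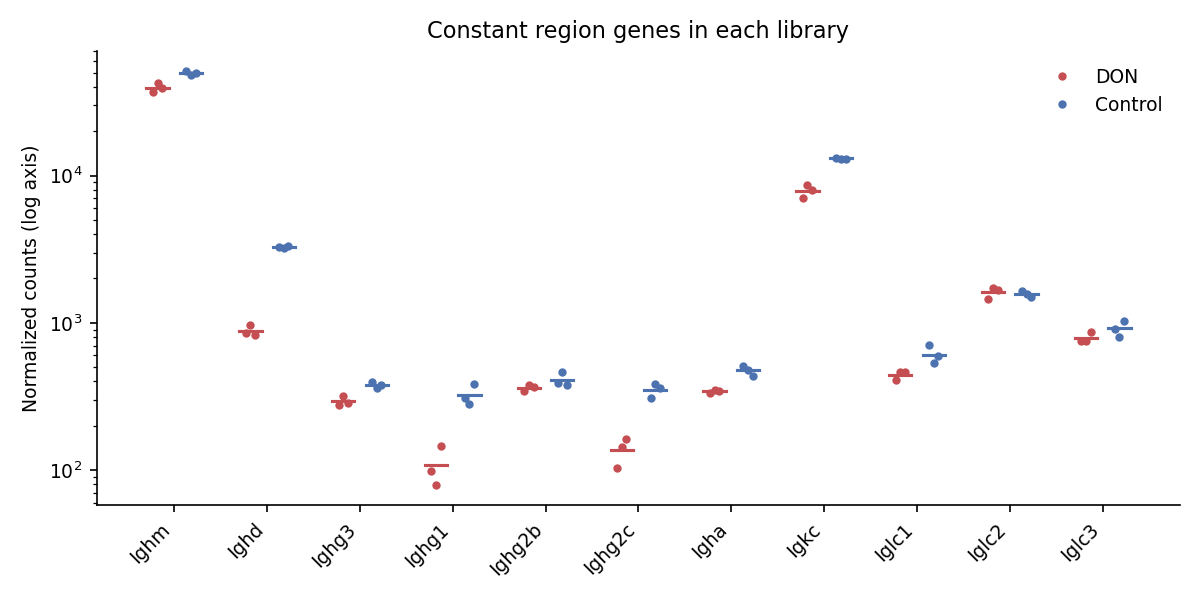
Normalized counts (log axis) of 11 constant region genes in each library; points are libraries, bars are group means, DON left of Control. Ighd shows the widest gap, with DON libraries at 829 to 961 and Control libraries at 3210 to 3341, and Ighg2b, Iglc2 and Iglc3 overlap.

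Of the light chain constant genes, Igkc fell and the lambda genes did not pass the limma test. Igkc, the single kappa constant gene (ENSMUSG00000076609.2, chr6:70726435-70726966, plus strand), had 7069, 8627 and 7978 normalized counts in DON libraries, against 13254, 12994 and 13059 in Control libraries. It fell by 0.74 on the log2 scale (SE 0.08, limma adjusted p = 0.00295). Gm30211, a long noncoding RNA annotated over Igkc on the same strand, had 196 ± 21.2 in DON and 189 ± 41.0 in Control. Iglc2 (chr16:19198396-19200351, minus strand) had 1444, 1727 and 1675 normalized counts in DON libraries and 1642, 1558 and 1507 in Control libraries, which overlapped (log2 change 0.04, 95% interval -0.18 to 0.26), and its sign turned to -0.01 without DON library 2 and to -0.12 without DON libraries 2 and 3. Iglc3 had 787 ± 62.6 in DON and 915 ± 108 in Control (log2 change -0.21, 95% interval -0.49 to 0.06) and Iglc1 had 445 ± 33.2 in DON and 608 ± 88.1 in Control (log2 change -0.44, 95% interval -0.76 to -0.13, limma adjusted p = 0.0937). Iglc1 was lower in every DON library than in any Control library, and DESeq2 called it (adjusted p = 0.0425). Iglc4, the least abundant, had 4.05 to 8.61 in DON and 1.10 to 4.10 in Control and did not reach the minimum level. Lambda took 26.6% ± 1.0 of the light C counts in DON and 19.1% ± 0.8 in Control, without overlap, but 18.8% ± 1.0 of the light V counts in DON and 19.8% ± 0.3 in Control, with overlap (SD, n = 3 each).

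Ratios between constant genes were compared within libraries, which removes any factor common to a library. In 8 of 13 ratios the groups did not overlap, and each of those had p = 0.1 by a two-sided exact permutation test, the smallest that 3 against 3 libraries allows (0.162 after adjustment over the 13). Relative to Ighm, the difference in log2 ratio, DON minus Control, was -1.57 for Ighd, -1.30 for Ighg1, -1.06 for Ighg2c, -0.41 for Igkc and 0.36 for Iglc2. Relative to Igkc it was 0.77 for Iglc2, 0.52 for Iglc3 and 0.29 for Iglc1. For Ighg2b, Ighg3, Igha, Iglc1 and Iglc3 relative to Ighm the groups overlapped, with differences of -0.15 to 0.16.

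J and D segments had few counts. They are short, with D segments of 10 to 29 bases and J segment sequences of 38 to 54 bases. How far this shortness lowered their counts was not tested. None of the 20 D segments exceeded 4.46 normalized counts in any library, and 7 of the 14 J segments reached the minimum level, of which 0 passed the limma test and 1 had an unadjusted p under 0.05 (edgeR called 0, DESeq2 called 1). Igkj3 and Igkj4 reached that level through Control libraries alone, a selection that favours lower values in DON. Igkj3, the segment without the motif printed above, had 7.65, 1.78 and 2.03 normalized counts in DON libraries and 25.4, 24.1 and 21.5 in Control libraries. It missed the threshold, with a log2 change of -2.56 (limma adjusted p = 0.0619). Igkj5 had 9.12 to 12.4 in DON and 13.2 to 26.4 in Control, Igkj4 had 8.10 to 8.92 in DON and 10.8 to 16.4 in Control, and Igkj2 overlapped. At the heavy locus Ighj2 had 26.8 to 34.4 in DON and 14.4 to 29.6 in Control, and Ighj4 had 9.81 to 22.0 in DON and 15.4 to 21.5 in Control. Iglj2, which lies inside the annotated Iglc2 transcript, had 39.2, 0.892 and 43.6 in DON libraries and 42.0, 32.9 and 45.1 in Control libraries, so that DON library 2 alone was near 0.

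V segments, which encode most of the antigen-binding surface, were mostly lower in DON. Of 82 tested heavy V segments 13 fell, of 81 tested kappa V segments 9 fell, and of 3 lambda V segments 1 fell. The share that fell over all tested genes was 4.15%. The median log2 change was -0.93 for heavy, -0.77 for kappa and -0.43 for lambda V segments. Leaving out 1 library gave 0 to 20 heavy and 0 to 16 kappa V segments that fell. Over all 17185 tested genes it gave 193 to 2118 that fell. Of 130 V pseudogenes, 104 were at 0 in all libraries, 5 were tested and 0 passed by limma, 1 of them at an unadjusted p under 0.05 (edgeR and DESeq2 called 0).

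**Figure D3:**
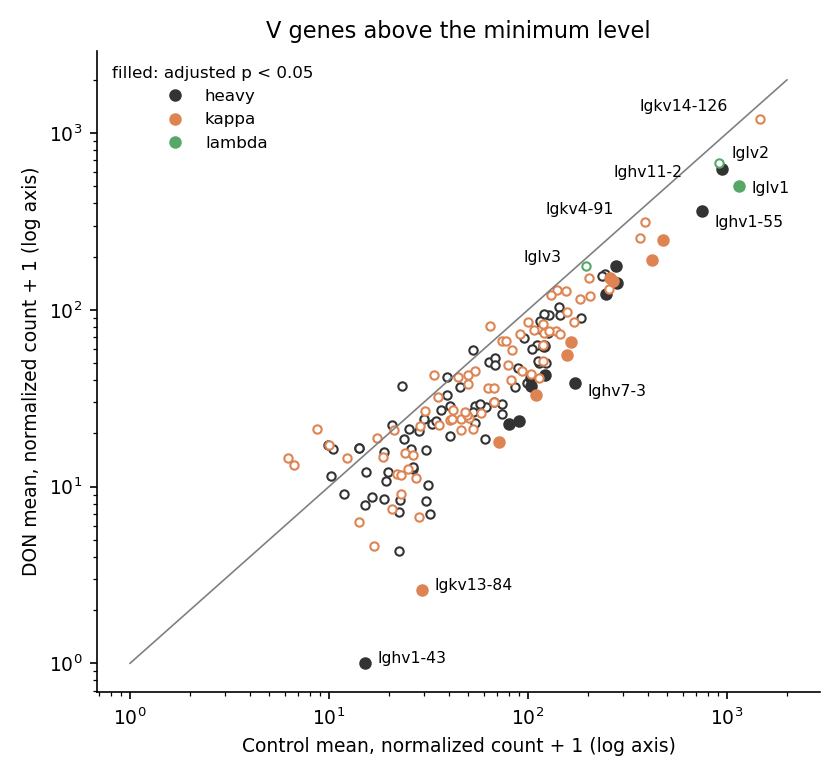
Mean normalized count + 1 of each V segment above the minimum level in DON (vertical, log axis) against Control (horizontal, log axis); colours are loci, filled points passed the test and the line marks equality. All 39 V segments with a mean of at least 100 lie below the line, 13 of them filled.

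The most abundant V segment of the heavy locus was Ighv11-2 (ENSMUSG00000096108.2, chr12:114048241-114048812). It had 589, 615 and 675 normalized counts in DON libraries, against 892, 917 and 1005 in Control libraries, and fell by 0.58 on the log2 scale (SE 0.10, limma adjusted p = 0.02). Ighv1-55 had 287, 367 and 436 in DON libraries and 696, 810 and 727 in Control libraries, and fell by 1.05 on the log2 scale (SE 0.16, limma adjusted p = 0.0134). No DON library reached the Control range in either gene. Ighv1-53 averaged 140 ± 30.7 in DON and 279 ± 18.4 in Control and Ighv1-26 averaged 175 ± 9.78 in DON and 277 ± 34.1 in Control, and both fell (limma adjusted p = 0.0272 and 0.048). Ighv12-3, at 179, 167 and 132 in DON libraries and 280, 255 and 196 in Control libraries, did not pass (log2 change -0.61, limma adjusted p = 0.108).

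At the kappa locus the most abundant V segment was Igkv14-126 (ENSMUSG00000094345.2, chr6:67896172-67896642), with 1125, 1332 and 1134 normalized counts in DON libraries and 1418, 1553 and 1440 in Control libraries. All DON libraries were lower, but the change did not pass the test (log2 change -0.30, 95% interval -0.53 to -0.07, limma adjusted p = 0.106). Igkv4-91 overlapped, at 307, 347 and 281 in DON libraries and 327, 375 and 458 in Control libraries. Igkv10-96 averaged 248 ± 60.6 in DON and 476 ± 71.9 in Control and Igkv1-135 averaged 190 ± 35.4 in DON and 418 ± 60.5 in Control, and both fell (limma adjusted p = 0.04 and 0.0138). Igkv1-117 averaged 255 ± 14.1 in DON and 363 ± 35.5 in Control and did not pass (limma adjusted p = 0.0637).

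The V segments of the phosphatidylcholine-reactive pairs, grouped after their values were seen, took a larger share of their loci in DON. Ighv11-2 and Ighv12-3 together held 18.4% ± 1.2 of heavy V counts in DON and 15.6% ± 0.6 in Control, and Igkv14-126 and Igkv4-91 held 25.7% ± 0.8 of kappa V counts in DON and 20.3% ± 0.7 in Control (SD, n = 3 each). The groups did not overlap in either share, which is a description with no test. A larger mean share in DON was not particular to these segments. Ighv5 held 7.5% of heavy V counts in DON and 6.05% in Control, and Igkv8 10.1% of kappa V counts in DON and 9.16% in Control. Other families had a smaller share, such as Ighv1 (42.8% in DON and 45.3% in Control) and Igkv3 (4.88% in DON and 6.35% in Control).

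Of the lambda V segments, Iglv1 fell. Iglv1 (ENSMUSG00000076934.2, chr16:19085017-19085500) had 415, 552 and 528 normalized counts in DON libraries, against 1080, 1211 and 1150 in Control libraries, and fell by 1.21 on the log2 scale (SE 0.13, limma adjusted p = 0.00305). Iglv2 had 642, 666 and 731 in DON libraries and 995, 883 and 869 in Control libraries, below in every DON library without passing the test (log2 change -0.43, limma adjusted p = 0.0514). It passed under 6 alternatives, among them DESeq2 and the GC correction (adjusted p = 0.0087 and 0.0279). Iglv3 overlapped, at 175 ± 32.4 in DON and 195 ± 51.7 in Control. In the mouse Iglv1 joins mainly to the J segments of Iglc1 and Iglc3, and Iglv2 mainly to that of Iglc2. The antisense gene 2010309G21Rik, annotated across Iglv1, Iglc1 and Iglc3, had 184 ± 42.6 in DON and 229 ± 57.2 in Control. The sources do not state whether counting used strand, so reads of overlapping genes cannot be told apart.

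The largest falls among V segments past the threshold were in scarce genes, apart from Ighv7-3. Ighv1-43 and Igkv13-84 reached the minimum level through Control libraries alone, a selection that favours a fall, so their calls are given as a description. Ighv1-43 was at 0 in all 3 DON libraries and at 13.7, 16.5 and 12.3 normalized counts in Control libraries, at least 4.95-fold lower against a floor of 3 units per DON library. That bound takes 1 unit as 1 read. At 4 units per read, a setting chosen after the data were seen, the floor is 12 units and the bound is 1.24-fold. Igkv13-84 had 4.78, 0 and 0 in DON libraries and 24.4, 31.8 and 28.7 in Control libraries. Calls of both were lost with a pseudocount of 0.1 (limma adjusted p = 0.134 for Ighv1-43 and 0.0907 for Igkv13-84). Ighv7-3 had 26.8, 56.2 and 29.4 in DON libraries and 178, 174 and 159 in Control libraries, and fell by 2.23 on the log2 scale (SE 0.31, limma adjusted p = 0.00833). Igkv4-68, Ighv1-7 and Ighv8-12 fell by 2.14, 1.98 and 1.80 on the log2 scale, with means of 16.9, 22.6 and 21.6 in DON and 70.8, 88.7 and 79.6 in Control. Of the 13 named V segments that fell, with Ighv1-43 and Igkv13-84 among them, 12 lost the call without at least 1 of the libraries, and Iglv1 kept it.

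**Figure D4:**
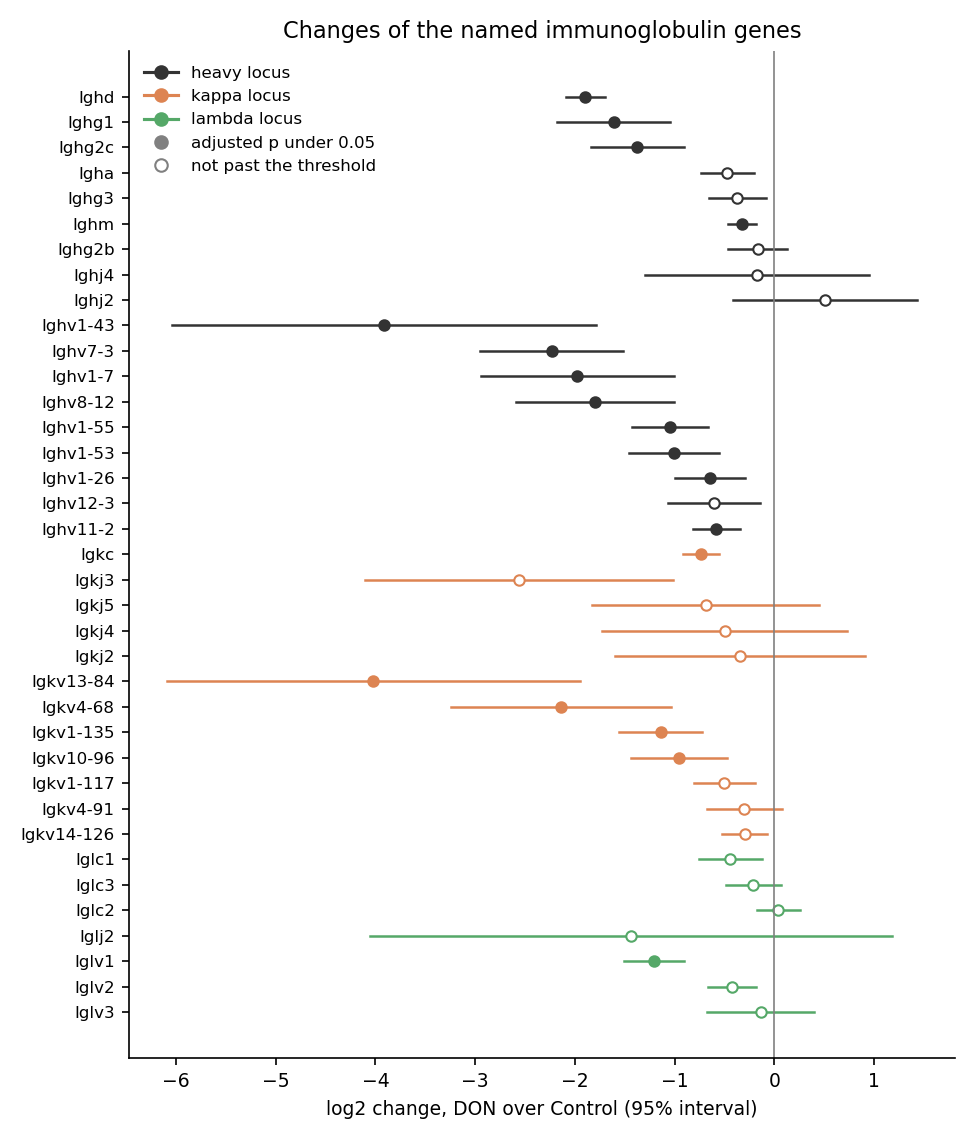
Log2 change, DON over Control, with its 95% interval for the 37 named members that could be tested; colours are loci and filled points passed the test. Intervals are narrow for abundant genes such as Ighd (-2.09 to -1.70) and wide for scarce ones such as Iglj2 (-4.05 to 1.18).

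V families, groups of V segments alike in sequence, were summed to describe the repertoire. All 12 heavy families with a mean of at least 100 normalized counts were lower in every DON library than in any Control library, as were 13 of 14 such kappa families. Among all tested genes, taken singly and not summed, 15.7% were lower in this way. The exception was Igkv19, with 118 to 136 in DON and 102 to 177 in Control. Among heavy families the log2 ratio of means ran from -1.89 in Ighv7 (75.0 ± 32.0 in DON and 277 ± 29.9 in Control) to -0.49 in Ighv6 (254 ± 21.7 in DON and 357 ± 33.0 in Control). The largest heavy family, Ighv1, had 1837 ± 146 in DON and 3441 ± 76.0 in Control, and the largest kappa family, Igkv14, had 1281 ± 118 in DON and 1607 ± 92.0 in Control. Distance from Ighm at the heavy locus and from Igkc at the kappa locus showed no steady order. The V segments of a locus were cut into 3 blocks by this distance. The log2 ratio of sums in the nearest, middle and farthest block was -0.79, -0.76 and -0.92 at the heavy locus. At the kappa locus it was -0.70, -0.55 and -0.64.

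**Figure D5:**
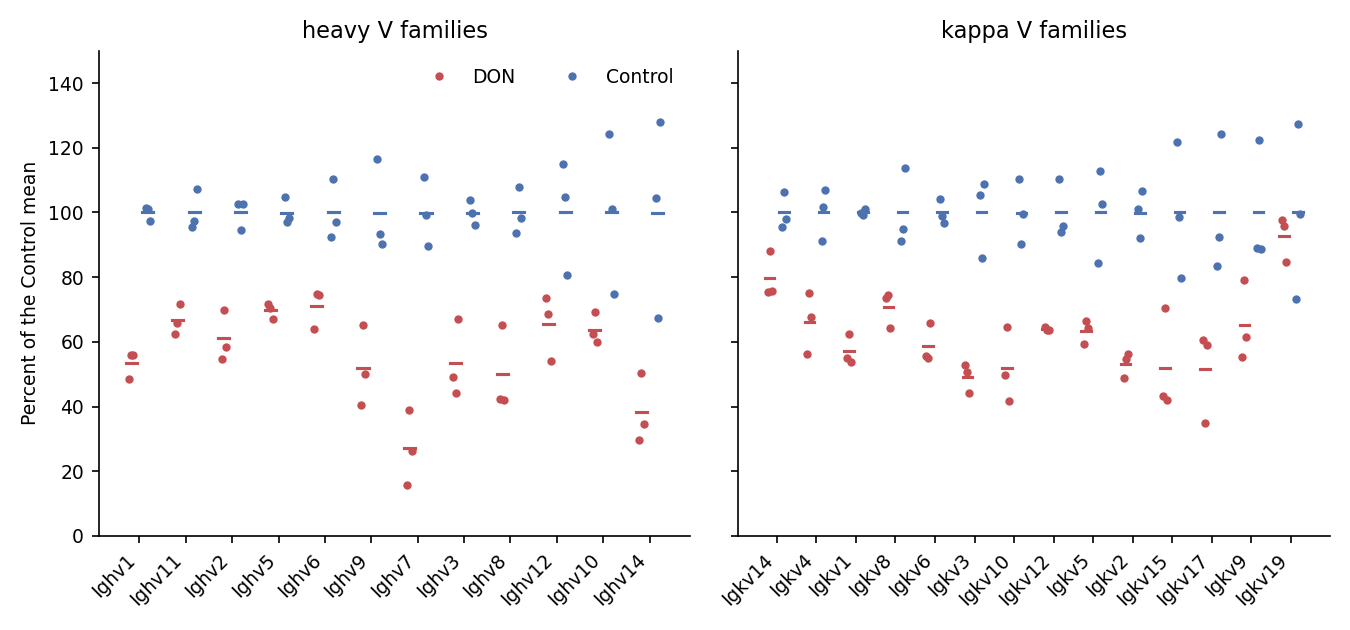
Summed normalized counts of heavy (left) and kappa (right) V families with a mean of at least 100, in each library, as percent of the Control mean; points are libraries, bars are group means, DON left of Control. Ighv7 has the lowest DON values of the heavy families, and Igkv19 is the family whose groups overlap.

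Genes that work with immunoglobulins were read from lists, beside all tested genes, of which 4.15% fell and 2.3% rose. Of 14 B cell markers 13 fell, 0 rose and 1 did not pass, with a median log2 change of -0.91. They included Ms4a1, the gene of CD20, at 1245 ± 162 in DON and 3534 ± 224 in Control and Cd79a, a signalling chain of the B cell receptor, at 2368 ± 237 in DON and 3512 ± 30.8 in Control. The B cell markers moved with the immunoglobulin genes, and their part in the result was not tested. Of 11 tested plasma cell genes 2 fell, Jchain, which joins IgM and IgA into polymers (487 ± 61.3 in DON and 1446 ± 64.2 in Control), and Irf4, a transcription factor (1593 ± 84.6 in DON and 2440 ± 212 in Control). Derl3, an endoplasmic reticulum degradation factor, rose, at 202 ± 32.0 in DON and 92.4 ± 23.4 in Control, and Tnfrsf17 was at 0 in all libraries.

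Of 13 tested genes of class switching and V(D)J recombination 0 passed by limma, 3 had an unadjusted p under 0.05, edgeR called 0 and DESeq2 called 1. Of 10 antibody receptors and transporters 3 fell, against 4.15% of all tested genes. Pigr, which carries polymeric antibody across epithelia, had 33.5, 32.1 and 32.4 in DON libraries and 171, 159 and 176 in Control libraries. Fcmr, the IgM receptor, which is also counted among the B cell markers, had 2345 ± 201 in DON and 4186 ± 170 in Control. Fcgr2b, the inhibitory IgG receptor, had 626 ± 76.1 in DON and 1091 ± 88.6 in Control. Fcgr1, an activating IgG receptor, did not pass, at 278 ± 18.7 in DON and 281 ± 33.9 in Control.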

How the data were processed

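Per the file headers, each deposited file held 1 column of normalized counts per gene, a signal that the authors made from gene counts with 1 factor per library. The submitters' processing notes list HISAT2, StringTie, mm8 and mm10 without saying what each was used for. All values above 0 (100% in each library) were whole multiples of 1 step, within a tolerance of 0.001, and the multiples are called units. A unit need not be 1 read, because more genes held 4 units (854 to 903) than 3 (382 to 446) or 5 (529 to 587).

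Genes under 1 symbol were added up, symbols with at least 10 normalized counts in at least 3 of 6 libraries were kept, and log2(value + 1) was tested with limma 3.58.1 in R 4.3.3 (variance trend, two-sided, Benjamini-Hochberg). Fold changes are on that scale, which understates changes of low genes. The edgeR 4.0.16 quasi-likelihood test on units called 638 genes lower and 360 higher, among them 26 immunoglobulin genes lower. DESeq2 1.42.0, other pseudocounts (0.1 and 10), filters and scalings, a GC correction (loess, span 0.5), a replicate block and omitted libraries were alternatives. The GC correction left genes without a GC value unchanged.

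Annotation, exonic length and sequence came from GENCODE M21 on GRCm38, in which all 395 members had the files' coordinates. Copies were found with BLAST 2.17.0. Named genes were all constant genes, J or D segments above the minimum, the 5 most abundant V segments of the heavy and of the kappa locus, all lambda V segments, the 6 largest changes in each direction among V segments past the threshold, and the 3 other genes with levels most like those of Ighm and of Igkc. Some genes of the lists are not reported here. The members and lists were chosen with earlier results of these data known. Whether replicates were separate cultures or animals is not stated in the labels, and p-values reflect the scatter among these libraries alone, which may be technical.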

Additional observations from a re-analysis of the deposited data

How the results depend on the processing

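Of 395 immunoglobulin genes, 28 fell in the main test. The number was 54 with DESeq2 on units, 17 with no low value filter, 13 with no variance trend and 8 with the replicate block. It was 14 with the GC correction and replicate block together, and 4 to 45 when 1 library was left out. Over all 17185 tested genes, 713 fell in the main test, 1348 with DESeq2, 291 with no variance trend and 240 with the replicate block. With no low value filter 483 of 26369 fell. The number over all tested genes was 332 with the GC correction and replicate block together, and 193 to 2118 when 1 library was left out. No member rose under any of the 22 alternatives. Same-numbered libraries had correlations of -0.06, -0.05 and -0.05 in their deviations from the group means. With 3 libraries per group, these values cannot decide whether the replicate numbers pair the libraries. The calls of Ighd, Igkc and Iglv1 held under all 22 alternatives, and none of the 18 named genes that fell changed sign. Ighm did not pass with no low value filter, no variance trend, quantile normalization or the replicate block (limma adjusted p = 0.057, 0.129, 0.066 and 0.0934). Of the named genes, 15 lost a call under at least 1 alternative and 5 gained one: Iglv2 under 6 alternatives, Igha and Igkj3 under 3 each, Igkv1-117 under 2 and Iglc1 under 1. The cause of these shifts was not tested.

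Log2 ratios of sums kept their sign. With 1 library left out, heavy V ranged from -0.87 to -0.76, kappa C from -0.80 to -0.66, lambda V from -0.76 to -0.69 and the switched isotypes from -0.68 to -0.59. Heavy V gave -0.68 with quantile normalization and -0.95 without DON libraries 2 and 3, and kappa V gave -0.51 with quantile normalization. Without DON libraries 2 and 3, kappa C gave -0.89, lambda V -0.84 and the switched isotypes -0.74. The ratios between constant genes kept their sign under every scaling and omission tried. Genes that had not passed the test and changed sign were Ighj4 (-0.43 to 0.12 with 1 library left out and 0.33 without DON libraries 2 and 3), Iglc2 (-0.01 to 0.12 with 1 library left out and -0.12 without DON libraries 2 and 3), Iglj2 (-2.22 to 0.06 with 1 library left out) and Iglv3 (-0.27 to 0.07 with 1 library left out, 0.004 without DON library 3, 0.015 with quantile normalization and 0.12 without DON libraries 2 and 3). Low counts limit what can be read from the J, D and V segments, of which many held fewer than 10 normalized counts. The parts of depth and of segment length in this were not tested.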

Other observations

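Outside the immunoglobulin loci, the 3 genes whose levels over the 6 libraries were most like those of Ighm were Adam9, Egln3 and Ssc5d (Pearson r = 0.999, 0.998 and 0.995). Those most like Igkc were Cd79a, Gadd45g and Igfbp4 (Pearson r = 0.997, 0.996 and 0.996). These values describe 6 libraries that form 2 groups, were picked as the highest of all tested genes, and carry no p. Egln3, an oxygen-sensing hydroxylase, averaged 201 ± 44.8 normalized counts in DON and 397 ± 29.2 in Control, and Gadd45g, a stress response gene, averaged 241 ± 22.4 in DON and 495 ± 14.0 in Control (SD, n = 3 each). Igfbp4, which binds insulin-like growth factors, averaged 271 ± 34.7 in DON and 568 ± 23.2 in Control, and Adam9, a membrane protease, 747 ± 56.1 in DON and 927 ± 19.5 in Control.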
